A study of Gallus gallus with 24 samples.

Results

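The genes described here were expressed in both gonads of female chicken embryos at embryonic day (E) 5 and stood far lower in both at E9.5, some of them at levels that were still well above 0. They were chosen by their levels in CPM (a gene's count divided by the total of its library and scaled to a common total). A gene was taken where its mean level at E5 was at least 5 CPM on each side and at least 8 times the E9.5 mean of the same side plus 0.1 CPM. Of 24154 genes in the table, 27 are described, among 11356 genes that reached the E5 minimum on both sides. Because E5 and E9.5 values chose the genes, levels at those stages are given as a description, and tests are given only for the E6.5 and E8 libraries, which the choice did not use. A loss from E5 to E9.5 makes a fall from E6.5 to E8 likely, so counts of such falls are not independent of the choice. The left gonad and the right gonad of Leghorn females, with no treatment named in the labels, were sequenced at E5, E6.5, E8 and E9.5 from poly(A) RNA, with 3 libraries for each of the 8 groups. The study asked how the female gonads of birds come to develop unequally. The labels name tissue from whole gonads and do not say whether a library is 1 embryo, a pool or a repeat preparation, so a p-value here reflects how far these samples scatter, and that scatter may be technical.

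In female birds the left gonad grows into a working ovary, whereas the right gonad stops growing and regresses. Both start as a thickening of the coelomic epithelium beside the mesonephros, the embryonic kidney, in mesoderm that also carries transcription factors of the lateral plate, such as HAND and GATA proteins. Over these stages the gonad takes on ovarian character, while the blood of the embryo replaces its first, primitive red cells with definitive ones that use other globin genes.

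Library totals ran from 15078282 counts (E5 right 3) to 19970859 counts (E9.5 right 2). Libraries of a group differed by more than counting noise, with chi-square per degree of freedom from 7.91 to 58.1 over 24 pairs, and none was treated as a repeat of another. A list of 15 early gonad specification genes, 14 of them in the table, summed to between 1465 and 2718 CPM in the 24 libraries, and 13 genes of pre-granulosa and other ovarian somatic cells summed to between 2931 and 4089 CPM at E9.5, against between 142 and 197 CPM at E5. Transcripts listed for neighbouring tissues stood at unequal levels between libraries, and their source was not tested. The liver transcript ALB stood at 171 CPM in 1 left library at E6.5 and at 981 CPM in 1 right library at E8, against at most 10.2 CPM in the other 22 libraries. The 27 genes together held between 0.0182% and 0.0437% of all counts at E9.5, against between 0.411% and 0.664% at E5.

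By role, the 27 genes comprised 6 transcription factors and cofactors, 8 secreted factors, cell-surface regulators and receptors, 6 genes of the extracellular matrix, 4 genes of channels, transport and adhesion, 2 embryonic globins and 1 long non-coding RNA, LOC101750862, named as such in the RefSeq gene table. Just inside the threshold were GDF7, TRPC4 and FOXC1, whose smaller fold of both sides was 8.17, 8.24 and 8.36. Among the genes outside it, BCL11B and GREM1 were near, at 7.67 and 7.61.

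The decline was spread over the whole interval and its timing differed from gene to gene. The median gene kept 32.3% of its E5 level in the left gonad at E6.5, 11.7% at E8 and 5.07% at E9.5. In the right gonad the medians were 24.7%, 14.7% and 8.46%. Over all 11356 genes at the E5 minimum the median stayed between 97.1% and 99.9%. HBE, an embryonic globin, kept most at E6.5 by its means, with 88.5% in the left gonad and 88.4% in the right. Its libraries scattered widely, at 280, 218 and 772 CPM in left gonads at E6.5, against 743, 362 and 329 CPM at E5. Right gonads held 315, 479 and 771 CPM at E6.5, against 847, 608 and 316 CPM at E5. The 2 stages thus overlapped on both sides, and the part of blood content in these levels was not tested. GPC3, a glypican of the cell surface, kept least in the left gonad at E6.5, with 7.92%, and COL9A3, a collagen gene, kept least in the right, with 7.12%. HAND1 was lowest at E9.5 on both sides, at 0.717% in the left gonad and 1.27% in the right.

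**Figure D1:**
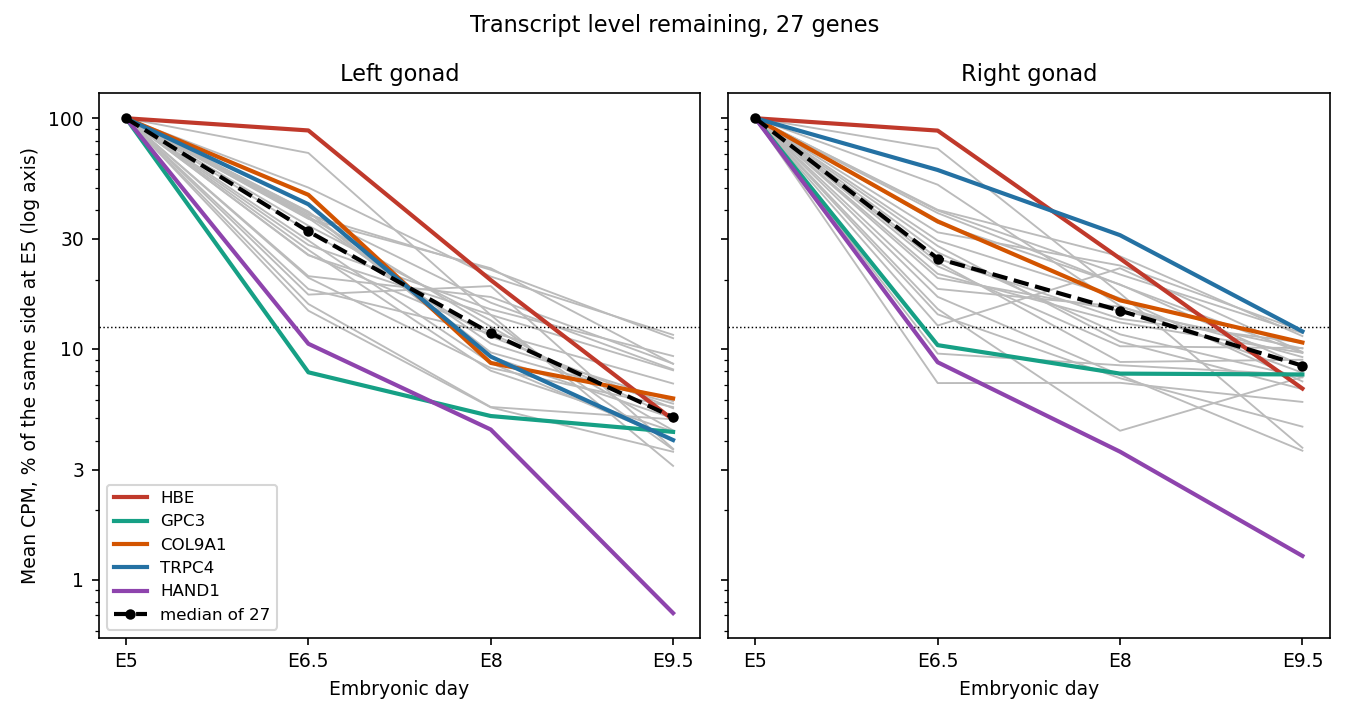
Mean CPM of each of the 27 genes at E5, E6.5, E8 and E9.5 as a percent of its E5 mean on the same side (log axis), left gonad and right gonad, 3 libraries per point; 5 genes are coloured, the dashed line is the median and the dotted line marks 12.5%, an 8-fold loss. HAND1 and GPC3 are past that line at E6.5 on both sides, whereas the mean of HBE is still at 88.5% in the left gonad and 88.4% in the right. Its E5 and E6.5 libraries overlapped on both sides.

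Counted by the first stage at which the mean was 8-fold below E5, the left gonad lost 2 genes at E6.5, 13 at E8 and 12 at E9.5, and the right gonad lost 4, 7 and 16. HAND1 and GPC3 passed this level at E6.5 on both sides. COL9A3 and PRDM6 passed it at E6.5 in the right gonad and at E8 in the left. For both, E5 right 1 stood far above the other right libraries of E5. It was at 104 CPM for COL9A3, against 32.4 and 41.6 CPM, and at 13.6 CPM for PRDM6, against 3.61 and 6.57 CPM. SCUBE1, ANXA1, TBX18 and FHL1 passed the 8-fold level at E8 on both sides. A group of 7 genes was past it at E8 in the left gonad and not until E9.5 in the right, namely COL7A1L, CNMD, CRISPLD2, KCNIP4, COL9A1, TRPC4 and COCH. The opposite order, E8 in the right gonad and E9.5 in the left, was seen for SLC5A7, ADGRD2 and LOC101750862. This order depends on the level chosen. At a 4-fold loss, 7 genes passed earlier in the right gonad, namely SCUBE1, GATA5, BMPER, KCNIP4, ADGRD2, LOC101750862 and PRDM6, and ANXA1, TRPC4 and FOXC1 passed earlier in the left, so KCNIP4 turned round and TRPC4 alone of the 7 genes above remained earlier in the left. At the 8-fold level the other 9 genes, among them both globins, GATA5, BMPER and SST, passed it at E9.5 on both sides. At a milder level, 22 of the 27 genes were already 2-fold below E5 on both sides at E6.5, and HBBR and HBE were the pair that reached this in neither gonad before E8. For this pair the E5 and E6.5 libraries overlapped on both sides.

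The first interval, E5 to E6.5, held a median of 41.8% of the whole log2 decline in the left gonad and 55.3% in the right. It held more than 50% of the decline for 11 genes in the left gonad and for 16 in the right. Means were lower at each later stage for nearly every gene. The exceptions were SST between E6.5 and E8 in the left gonad, COCH and COL9A3 between E6.5 and E8 in the right, and SCUBE1 and SLC5A7 between E8 and E9.5 in the right. Of all 11356 genes at the E5 minimum, 46.6% to 53.6% had a lower mean at each step. Steps from E5 or to E9.5 use values that chose the 27 genes, so falls there follow in part from the choice. In bulk tissue, fewer cells of a type and less RNA per cell cannot be told apart.

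The transcription factors were led by HAND1, a basic helix-loop-helix factor of the heart, the lateral plate and extraembryonic tissue. HAND1 stood at 23.6, 14.5 and 21.3 CPM in the left gonads at E5, at 1.35, 1.82 and 3.09 CPM at E6.5, at 0.663, 0.566 and 1.43 CPM at E8, and at 0, 0 and 0.426 CPM at E9.5. In the right gonads it stood at 31.6, 22.4 and 25.9 CPM at E5, at 3.56, 1.91 and 1.53 CPM at E6.5, at 0.952, 0.872 and 1.04 CPM at E8, and at 0.446, 0.0501 and 0.517 CPM at E9.5. The E5 libraries thus stood far above all later ones on both sides, and left and right overlapped at every stage. At E9.5 these levels rested on 0, 0 and 8 counts in the left gonads and on 7, 1 and 8 counts in the right. A count of 0 allows up to 3 counts, or 0.175 and 0.165 CPM in those 2 libraries, for counting error only. Between E8 and E6.5 the log2 fold change of HAND1 was -1.19 ± 0.56 (SE) in the left gonad (edgeR adjusted p = 0.15) and -1.22 ± 0.56 in the right (edgeR adjusted p = 0.13), neither past the threshold of 0.05. DESeq2 on the same counts gave adjusted p-values of 0.038 and 0.025.

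**Figure D2:**
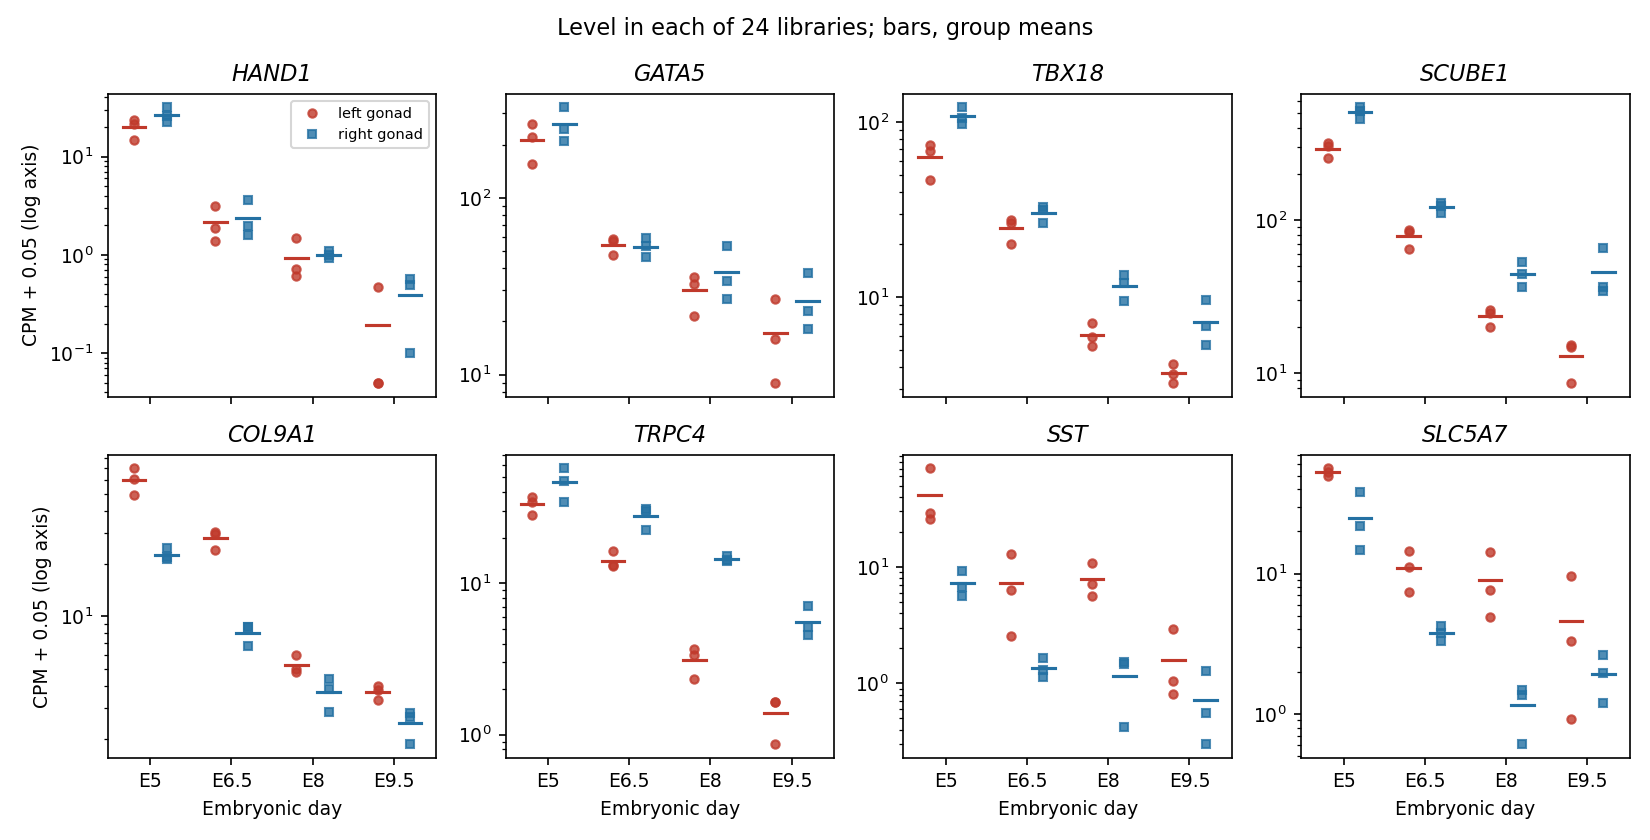
CPM plus 0.05 (log axis) of 8 of the genes in each of the 24 libraries at E5, E6.5, E8 and E9.5, left gonad in red circles and right gonad in blue squares, with bars at the means of 3 libraries. HAND1 shows its widest gap between E5 and E6.5, TRPC4 and COL9A1 separate the gonads in opposite directions at E6.5, and SST and SLC5A7 scatter among left libraries.

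TBX18, a T-box factor of the epicardium and the ureter mesenchyme in the mouse, had its steepest loss in the left gonad between E6.5 and E8. It stood at 67.9, 46.9 and 73.5 CPM in the left gonads at E5, at 20.2, 26.3 and 27.7 CPM at E6.5, at 5.25, 7.05 and 5.89 CPM at E8 and at 4.09, 3.20 and 3.62 CPM at E9.5. The right gonads held 121, 96.7 and 105 CPM, then 31.4, 32.6 and 26.4 CPM, then 9.46, 12 and 13.3 CPM, then 9.56, 5.31 and 6.79 CPM at the same stages. Every E8 library was below every E6.5 library of its side. TBX18 fell between E8 and E6.5 by 2.0 ± 0.20 on the log2 scale in the left gonad (edgeR adjusted p = 1.6e-06) and by 1.32 ± 0.19 in the right (edgeR adjusted p = 9e-05).

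GATA5, a zinc-finger factor of heart and endoderm development, had lost most of its level by E6.5. Its mean was 213 ± 53.5 CPM in the left gonads at E5, 54.1 ± 5.99 CPM at E6.5, 29.9 ± 7.43 CPM at E8 and 17.2 ± 8.94 CPM at E9.5 (SD, n = 3). In the right gonads the means were 260 ± 58.9, 52.8 ± 6.20, 38.1 ± 13.9 and 26.1 ± 10.2 CPM. The E8 difference from E6.5 did not pass the threshold in the left gonad (log2 fold change -0.83 ± 0.32, edgeR adjusted p = 0.074) or in the right (-0.42 ± 0.32, edgeR adjusted p = 0.39). FOXC1, a forkhead factor of mesenchyme and eye development, likewise did not pass it on either side, although it did in the left gonad without E8 left 3 (edgeR adjusted p = 0.028), its highest E8 library. PRDM6, a PR-domain repressor known from smooth muscle in the mouse, had 2.7, 2.95 and 2.7 CPM in the left gonads at E6.5, against 1.12, 0.638 and 0.510 CPM in the right. PRDM6 fell in the left gonad to 0.724, 0.818 and 0.916 CPM at E8 (log2 fold change -1.72 ± 0.47, edgeR adjusted p = 0.015), a call that ended without E8 left 1 (edgeR adjusted p = 0.057). In the right gonad its mean at E6.5 was 9.55% of its E5 mean, on 18, 10 and 8 counts at E6.5. The E5 right libraries had 13.6, 3.61 and 6.57 CPM, so this share rests largely on E5 right 1. Without that library PRDM6 did not meet the rule. PRDM6 did not pass the threshold between E8 and E6.5 in the right gonad (-0.10 ± 0.52, edgeR adjusted p = 0.92). FHL1, a LIM-domain cofactor, fell in the left gonad (-1.45 ± 0.44, edgeR adjusted p = 0.027), and without E6.5 left 3, whose level was the highest of its group, the value was -0.83 (edgeR adjusted p = 0.21). The FHL1 call also ended without E8 left 1 (0.086), E8 left 2 (0.071) or E8 left 3 (0.056), and with only the compared libraries (0.080).

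Factors of the lateral plate and coelomic mesenchyme outside the 27 were counted next. Of 22 tested genes on a list of lateral plate and coelomic mesenchyme factors that are not among the 27, 1 fell between E8 and E6.5 in the left gonad, WT1, where 10% of all genes fell. In the right gonad LHX9 and TBX5 fell, where 9.72% of all genes fell, and GATA6 and TWIST1 rose, where 10.8% of all genes rose. These counts are near or below the share over all genes. The nearest paralog of HAND1, HAND2, averaged 46.0 CPM in left gonads at E8, against 32.6 CPM at E6.5, and did not pass the threshold (log2 fold change 0.53 ± 0.48, edgeR adjusted p = 0.48). Left libraries scattered, at 29.1 to 39.8 CPM at E5, 12.9 to 53.6 at E6.5, 25.3 to 70.6 at E8 and 6.43 to 44.4 at E9.5. Right libraries held 47.5 to 53.5, 14.7 to 21.1, 12.2 to 18.9 and 9.06 to 13.5 CPM at these stages. HAND2 did not pass between E8 and E6.5 in the right gonad, and at E8 it was higher in the left gonad than in the right. GATA4, a paralog of GATA5 needed for gonad formation in the mouse, averaged 351 CPM in left gonads at E8, against 515 CPM at E6.5 (-0.52 ± 0.19, edgeR adjusted p = 0.055). GATA4 did not pass the threshold in the right gonad either. Among 9 tested partners and inhibitors of HAND1-type factors, the partner TCF12 fell slightly in both gonads (-0.25 ± 0.08 in the left and -0.31 ± 0.08 in the right, edgeR adjusted p = 0.028 and 0.0076). The inhibitors ID1 and ID3 rose in the right gonad, as did TWIST1. A list of 13 early embryonic genes around LIN28, an RNA-binding protein that blocks let-7 maturation, was lower at E8 than at E6.5 for most of its genes. On each side 9 of the 13 fell, with a median log2 change of -0.64 in the left gonad and -0.50 in the right. LIN28A itself fell by 1.85 on the log2 scale in the left gonad (edgeR adjusted p = 0.00033) and by 1.11 in the right (edgeR adjusted p = 0.013).

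Over all 27 genes, 19 fell between E8 and E6.5 in the left gonad, or 70.4%, where 10% of all 16694 tested genes fell and 9.34% rose. In the right gonad 14 fell, or 51.9%, where 9.72% of all genes fell and 10.8% rose. The median log2 fold change of the 27 was -1.32 in the left gonad and -0.87 in the right, and over all genes it was 0.01 and 0.04. By edgeR 0 of the 27 rose on either side, at an unadjusted p under 0.05 also 0, and by DESeq2 0. At that unadjusted level 22 were lower in the left gonad and 19 in the right. A gene chosen for a loss between E5 and E9.5 is likely to fall within that interval. The excess over all genes and the lack of rises thus follow in part from the choice. All 14 that fell in the right gonad also fell in the left. The other 5 that fell in the left gonad were PRDM6, GDF7, FHL1, ANXA1 and BMPER, and the difference between the gonads in the change from E6.5 to E8 did not pass the threshold for any of these 5. Neither gonad passed the threshold for 8 genes, namely HAND1, GPC3, COL9A3, COCH, GATA5, FOXC1, SST and SLC5A7. GPC3 and HAND1 among them were past an 8-fold loss at E6.5 on both sides.

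**Figure D3:**
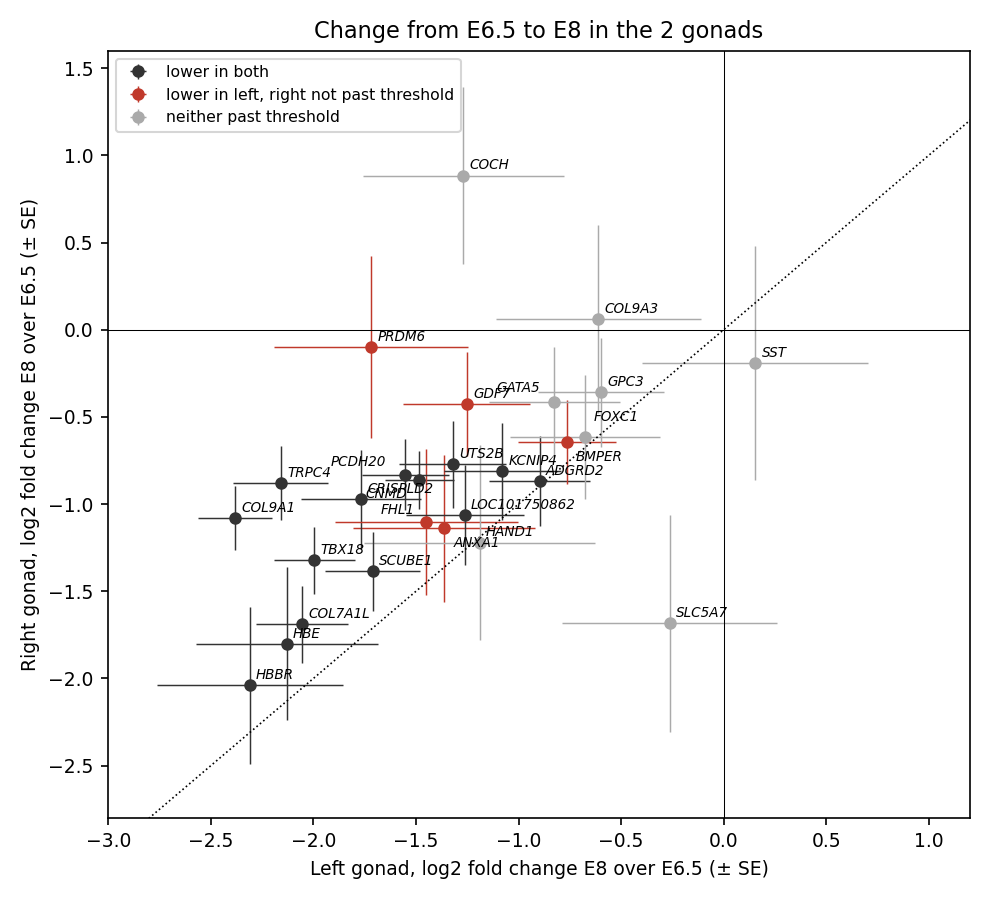
Log2 fold change of E8 over E6.5 (± SE, edgeR, 3 libraries per group) for the 27 genes, left gonad on the x axis and right gonad on the y axis; the dotted line marks equal change, and colours mark which gonads passed an adjusted p of 0.05. The 14 genes that fell in both gonads lie at the lower left, and COCH, COL9A3, SST, GPC3 and SLC5A7 lie apart from them.

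Of the 8 secreted factors, surface regulators and receptors, 6 fell in the left gonad between E8 and E6.5, where 10% of all genes fell. In the right gonad 3 fell, where 9.72% of all genes fell. Over all 27 genes the shares were 70.4% and 51.9%. SCUBE1, a secreted and membrane-bound EGF-repeat protein, had 19.96, 25.7 and 24.8 CPM in left gonads at E8, against 86.6, 64.8 and 83.6 CPM at E6.5. In right gonads it had 44.4, 53.1 and 36.5 CPM at E8, against 123, 112 and 128 CPM at E6.5. Groups did not overlap on either side, and the log2 fold changes were -1.71 ± 0.23 in the left (edgeR adjusted p = 4.3e-05) and -1.39 ± 0.23 in the right (edgeR adjusted p = 0.00028). UTS2B, a urotensin-related peptide hormone, and ADGRD2, an orphan adhesion receptor, also fell in both gonads. UTS2B changed by -1.32 ± 0.26 in the left and -0.77 ± 0.25 in the right (edgeR adjusted p = 0.0015 and 0.032). ADGRD2 changed by -0.90 ± 0.25 and -0.87 ± 0.26 (edgeR adjusted p = 0.015 and 0.022), and the left call ended without E6.5 left 3 (0.070), E8 left 1 (0.067) or E8 left 3 (0.063). Its right call ended without E6.5 right 2 (0.059), E8 right 1 (0.091) or E8 right 3 (0.053). For UTS2B the right call ended when replicate 1 or 2 of E6.5 right or of E8 right was left out (0.055 to 0.12).

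GPC3, which binds morphogens at the cell surface, had lost most of its level by E6.5. It stood at 118, 84.0 and 166 CPM in left gonads at E5 and at 10.3, 8.72 and 10.2 CPM at E6.5, and at 104, 51.0 and 57.5 CPM and 6.05, 7.79 and 8.22 CPM in right gonads. Its later means were 6.29 ± 0.60 CPM in left gonads at E8 and 5.37 ± 1.35 CPM at E9.5, and 5.53 ± 0.920 and 5.49 ± 2.31 CPM in right gonads (SD, n = 3). GDF7, a growth factor of the bone morphogenetic protein (BMP) family, and BMPER, a secreted BMP-binding protein, fell in the left gonad. GDF7 had 3.86, 3.90 and 3.60 CPM there at E8, against 5.88, 7.40 and 14.3 CPM at E6.5 (log2 fold change -1.25 ± 0.31, edgeR adjusted p = 0.0081). Its high E6.5 library was left 3, without which the change was -0.78 (edgeR adjusted p = 0.066). BMPER changed by -0.76 ± 0.24 in the left gonad (edgeR adjusted p = 0.030), and without the same library by -0.60 (0.12), without E8 left 1 by -0.60 (0.14) and without E8 left 2 by -0.85 (0.051). ANXA1, a calcium-dependent phospholipid-binding protein, fell in the left gonad (-1.36 ± 0.44, edgeR adjusted p = 0.036), a call that ended without any 1 of the 6 left libraries except E6.5 left 2 (0.054 to 0.10).

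SST, the peptide hormone somatostatin, was higher in left libraries than in right ones at E6.5 and E8. It had 2.51, 6.27 and 12.8 CPM in left gonads at E6.5, against 1.25, 1.08 and 1.59 CPM in right gonads, and 5.55, 7.05 and 10.9 CPM in left gonads at E8, against 1.49, 0.374 and 1.43 CPM in right gonads. Left and right did not overlap at either stage, and left replicate 3 was the highest library each time. The log2 fold change of left over right was 2.42 ± 0.62 at E6.5 (edgeR adjusted p = 0.036) and 2.76 ± 0.63 at E8 (edgeR adjusted p = 0.0064). Without E6.5 left 3 the E6.5 call ended (edgeR adjusted p = 0.20), as it did without E6.5 left 2 (0.084), any of the 3 right libraries of E6.5 (0.11 to 0.12) or E8 left 2 (0.052). SLC5A7, the choline transporter of cholinergic neurons, showed the same order. It had 4.88, 7.55 and 14.2 CPM in left gonads at E8, against 1.43, 0.561 and 1.32 CPM in right gonads (2.95 ± 0.61, edgeR adjusted p = 0.0034), and 7.29, 11.2 and 14.4 CPM in left gonads at E6.5, against 3.24, 4.21 and 3.69 CPM (1.53 ± 0.55, edgeR adjusted p = 0.17). A list of 14 neural and glial genes, 13 in the table, summed to 298 to 937 CPM in left gonads at E6.5 and 686 to 1181 CPM at E8, against 231 to 282 CPM and 238 to 353 CPM in right gonads. Other cholinergic transcripts stood higher at E6.5 than at E5, where SLC5A7 stood lower. CHAT, which makes acetylcholine, was at 0.777 to 2.19 CPM in left gonads at E5, 6.47 to 10.5 CPM at E6.5, 5.79 to 9.90 CPM at E8 and 6.73 to 10.2 CPM at E9.5, and at 1.26 to 3.12, 9.04 to 17.8, 2.96 to 11.8 and 6.56 to 14.8 CPM in right gonads. The vesicular transporter SLC18A3 stood at 5.0 to 6.67, 14.5 to 26.96, 14.4 to 20.7 and 25.9 to 30.9 CPM in left gonads and at 3.50 to 4.99, 13.3 to 19.3, 10.8 to 13.5 and 15.8 to 26.9 CPM in right gonads at those stages. The chromaffin transcript CHGA stood at 17.2 to 249 CPM in left gonads at E6.5 and 136 to 524 CPM at E8, against 8.54 to 26.7 CPM and 25.4 to 42.9 CPM in right gonads. The part of these tissues in the levels of SST and SLC5A7 was not tested.

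Of the 6 matrix genes, 4 fell in both gonads between E8 and E6.5, namely COL7A1L, COL9A1, CNMD and CRISPLD2. Over all genes, 10% fell in the left gonad and 9.72% in the right. COL7A1L, by its symbol a relative of the collagen gene COL7A1, had 80.6, 84.6 and 77.4 CPM in left gonads at E8, against 345, 290 and 393 CPM at E6.5. Right libraries had 133, 115 and 135 CPM at E8, against 512, 365 and 406 CPM at E6.5. The log2 fold changes were -2.06 ± 0.22 in the left gonad (edgeR adjusted p = 4.4e-06) and -1.69 ± 0.22 in the right (edgeR adjusted p = 3.2e-05). CNMD, chondromodulin, a glycoprotein of cartilage that blocks vessel growth, changed by -1.48 ± 0.17 and -0.86 ± 0.17 (edgeR adjusted p = 7e-06 and 0.0012). CRISPLD2, a secreted protein of the CAP family, changed by -1.77 ± 0.29 and -0.97 ± 0.28 (edgeR adjusted p = 0.00032 and 0.019), and its right call ended without replicate 1 or 2 of E6.5 right or of E8 right (0.050 to 0.088).

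COL9A1 and COL9A3 encode chains of the same cartilage collagen, type IX. Both were past an 8-fold loss at E8 in the left gonad. In the right gonad COL9A3 was past it at E6.5 and COL9A1 at E9.5. Their declines were not tested against each other. COL9A1 had 49.0, 69.8 and 60.6 CPM in left gonads at E5, 30.1, 29.5 and 23.9 CPM at E6.5, 4.95, 4.72 and 5.95 CPM at E8 and 3.27, 3.75 and 3.94 CPM at E9.5. In right gonads it had 24.4, 21.2 and 21.7 CPM, then 8.61, 8.68 and 6.75 CPM, then 2.80, 3.80 and 4.34 CPM, then 2.61, 2.75 and 1.81 CPM. The left libraries were above the right ones at every stage, and the gap narrowed between E6.5 and E8. The log2 fold change of E8 over E6.5 was -2.38 ± 0.18 in the left gonad (edgeR adjusted p = 1.3e-07) and -1.08 ± 0.18 in the right (edgeR adjusted p = 0.00038). COL9A3 had 5.02, 9.22 and 25.2 CPM in left gonads at E6.5, against 82.1, 58.4 and 76.3 CPM at E5. The right gonads had 2.37, 5.62 and 4.65 CPM at E6.5, against 104, 32.4 and 41.6 CPM at E5. It did not pass the threshold between E8 and E6.5 in the left gonad (-0.61 ± 0.50, edgeR adjusted p = 0.43) or the right (0.06 ± 0.54, edgeR adjusted p = 0.96). COCH, cochlin, a matrix protein known from the inner ear, had 2.41, 2.39 and 2.17 CPM in left gonads at E8, against 6.37, 4.33 and 6.47 CPM at E6.5 (-1.27 ± 0.49, edgeR adjusted p = 0.074). In right gonads it had 2.08, 1.12 and 5.76 CPM at E8, against 1.87, 1.85 and 1.34 CPM at E6.5 (0.88 ± 0.51, edgeR adjusted p = 0.24), with right 3 the high library.

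A list of 12 cartilage and limb bud genes moved beside the matrix genes. It summed to 344 to 561 CPM in left gonads at E5, 195 to 345 CPM at E6.5, 133 to 159 CPM at E8 and 128 to 158 CPM at E9.5, and to 399 to 651, 226 to 305, 162 to 201 and 116 to 160 CPM in right gonads. Most of the sum was COL2A1, the main collagen of cartilage, which fell between E8 and E6.5 in the left gonad (log2 fold change -1.0 ± 0.26, edgeR adjusted p = 0.012) and did not pass the threshold in the right (-0.45 ± 0.26, edgeR adjusted p = 0.24). The cartilage transcripts ACAN and MATN1 ranged from 0.126 to 2.36 CPM and from 0.292 to 5.23 CPM over the 24 libraries. The limb genes HOXA13, HOXD13, HOXD12 and SHOX were at 0 in some of the later groups. Of 8 tested genes on the list, 4 fell in the left gonad and 2 in the right, where 10% and 9.72% of all genes fell. FGF10 rose in both, where 9.34% and 10.8% of all genes rose. The part of cartilage or limb tissue in the matrix genes was not tested.

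Of the 4 genes of channels, transport and adhesion, TRPC4, PCDH20 and KCNIP4 fell in both gonads between E8 and E6.5. Of all genes, 10% fell in the left gonad and 9.72% in the right. TRPC4, a calcium-permeable cation channel, had 2.29, 3.34 and 3.60 CPM in left gonads at E8, against 16.2, 13.1 and 12.9 CPM at E6.5. Right gonads held 15.1, 14.3 and 14.1 CPM at E8, against 31.0, 29.9 and 22.4 CPM at E6.5. Right libraries were higher at both stages, with no overlap. The E8 over E6.5 log2 fold change was -2.16 ± 0.23 in the left gonad (edgeR adjusted p = 3.7e-06) and -0.88 ± 0.21 in the right (edgeR adjusted p = 0.0061). PCDH20, a protocadherin of cell adhesion, changed by -1.55 ± 0.21 and -0.83 ± 0.20 (edgeR adjusted p = 5.3e-05 and 0.0071). KCNIP4, a calcium-binding partner of voltage-gated potassium channels, changed by -1.08 ± 0.29 and -0.81 ± 0.28 (edgeR adjusted p = 0.012 and 0.044). Its left call ended without E8 left 1 (0.071), and its right call ended without any 1 of the 6 right libraries except E8 right 3 (0.067 to 0.13).

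The 2 globins, HBBR (rho) and HBE (epsilon), are beta-type globins of the primitive red cells of the chicken. They are neighbours in the RefSeq gene order, with 2 genes between them. HBBR had 211, 237 and 210 CPM in left gonads at E8, against 706, 545 and 2062 CPM at E6.5. Right gonads held 292, 385 and 303 CPM at E8, against 840, 1270 and 2034 CPM at E6.5. Replicate 3 was the highest on both sides at E6.5, and all E8 libraries lay below all E6.5 libraries. The E8 over E6.5 log2 fold change was -2.31 ± 0.46 in the left gonad (edgeR adjusted p = 0.0015) and -2.04 ± 0.45 in the right (edgeR adjusted p = 0.0035), and for HBE it was -2.13 ± 0.44 and -1.80 ± 0.44 (edgeR adjusted p = 0.0024 and 0.0067). Globins form a family of similar sequences, and how reads shared between them were counted is not given in the sources used here, so their levels are uncertain.

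HBBR was set against 10 genes of a red-cell list that are no globins, and against 4 other globin genes, HBE1, HBM, HBA1 and HBBA. The 10 were TAL1, GFI1B, SLC4A1, SPTB, ANK1, RHAG, HEMGN, TFRC, EPB42 and LMO2. In left gonads at E5 their sum was 304, 218 and 255 CPM, where HBBR was at 2483, 1172 and 1031 CPM. How far that sum measures the amount of blood was not tested. The 10 genes summed to 218 to 331 CPM at E5, 317 to 781 CPM at E6.5, 355 to 544 CPM at E8 and 311 to 524 CPM at E9.5 over both gonads. HBBR divided by that sum was 3.67 to 8.18 at E5, 1.72 to 4.2 at E6.5, 0.449 to 0.707 at E8 and 0.118 to 0.194 at E9.5. The ranges of E5 and E6.5 overlapped, and those of E6.5, E8 and E9.5 did not. The 4 globins summed to 745 to 1984, 2205 to 7518, 4062 to 7170 and 2640 to 7035 CPM, and HBBR divided by them was 1.26 to 1.36, 0.247 to 0.375, 0.0422 to 0.0583 and 0.0114 to 0.0165 at these stages. The 4 globins do not measure the amount of blood alone, since the adult globin HBBA stood at 713 to 2482 CPM at E6.5, against 9.85 to 36.4 CPM at E5. HBE divided by HBBR was 0.299 to 0.321 at E5, 0.374 to 0.400 at E6.5, 0.393 to 0.488 at E8 and 0.437 to 0.627 at E9.5. HBE1, in contrast, rose between E8 and E6.5 by 1.35 ± 0.35 on the log2 scale in the left gonad (edgeR adjusted p = 0.011) and by 1.89 ± 0.36 in the right (edgeR adjusted p = 0.0010).

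**Figure D4:**
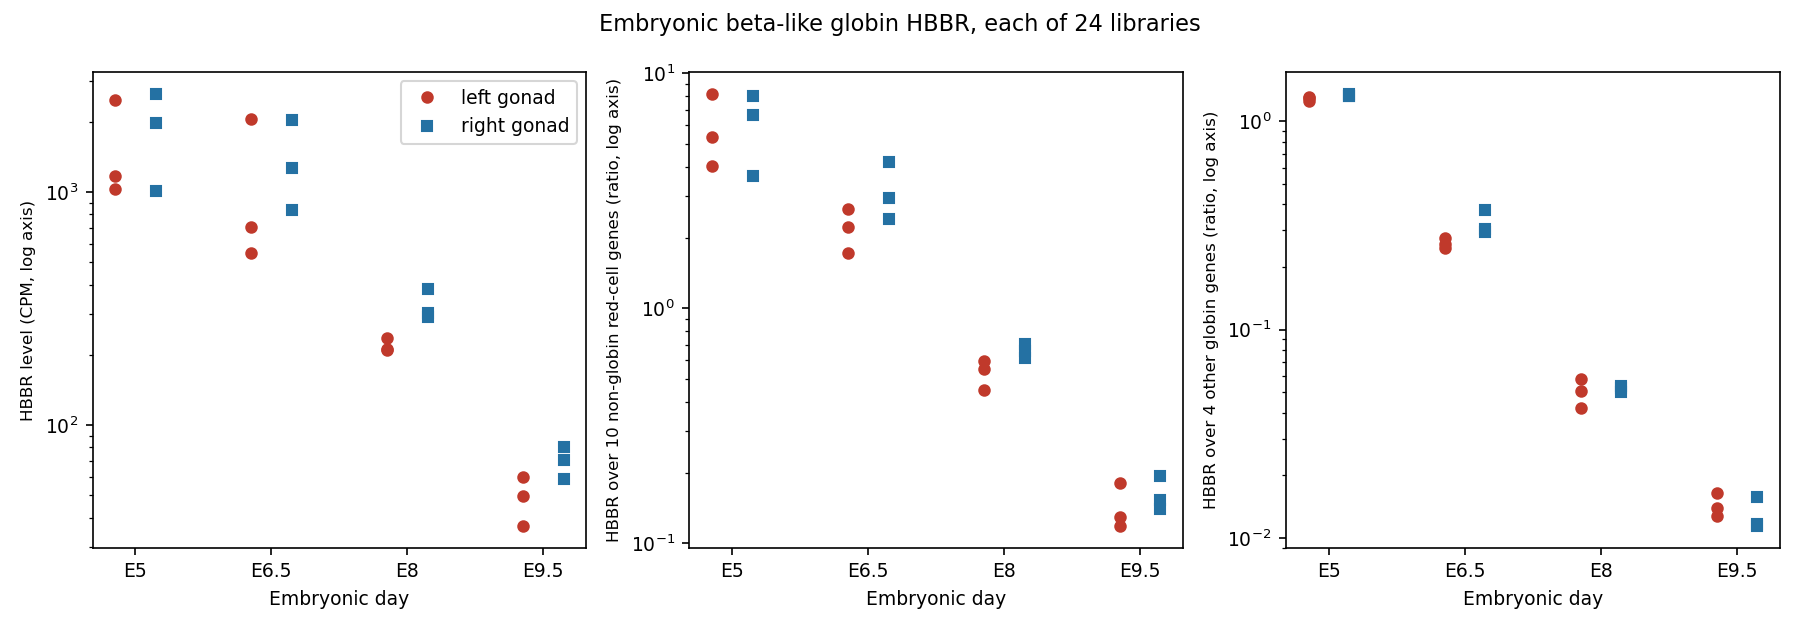
HBBR in each of the 24 libraries at E5, E6.5, E8 and E9.5, as CPM (first panel), divided by the summed CPM of 10 non-globin red-cell genes (second panel) and divided by that of HBE1, HBM, HBA1 and HBBA (last panel), all on log axes, left gonad in red and right gonad in blue. In the second panel E5 (3.67 to 8.18) and E6.5 (1.72 to 4.2) overlap and later stages lie below them, and in the last panel the 4 stages do not overlap, with HBBA in the divisor far higher from E6.5 on.

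The long non-coding RNA LOC101750862 had 1.09, 1.51 and 1.2 CPM in left gonads at E8, against 4.17, 2.26 and 2.87 CPM at E6.5 (log2 fold change -1.26 ± 0.29, edgeR adjusted p = 0.0048). In right gonads it had 1.73, 1.06 and 1.04 CPM at E8, against 2.99, 2.94 and 2.42 CPM at E6.5 (-1.06 ± 0.29, edgeR adjusted p = 0.013). Its right call ended without E8 right 2 (0.050) or E8 right 3 (0.055).

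At the stages that the choice of genes did not use, the left mean was lower than the right for 16 of the 27 at E6.5 and for 19 at E8. The median ratio of left to right was 0.840 at E6.5 and 0.672 at E8, where that of all genes at the E5 minimum was 1.02 and 1.01. At E5 and E9.5, whose values chose the genes, 16 and 20 were lower, with median ratios of 0.810 and 0.621. Over all genes at the E5 minimum these median ratios were 1.01 and 1.03. The share of all genes with a lower left mean was not counted. A change of the side difference with stage passed the test for 1 gene, described last. At E6.5, 2 genes were lower in the left gonad, TRPC4 and UTS2B, where 0.575% of all genes were. COL9A1, PRDM6 and SST, or 3 genes, were higher, where 2.67% of all genes were. At E8, 10 were lower, where 6.71% of all genes were, and SST and SLC5A7 were higher, where 7.54% of all genes were. The 10 were TRPC4, ANXA1, UTS2B, PCDH20, GDF7, TBX18, SCUBE1, CNMD, CRISPLD2 and COL7A1L. TRPC4 and UTS2B were lower in the left gonad at both stages, and 13 genes, among them HAND1, GATA5, GPC3 and both globins, passed the threshold at neither.

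The side difference at E8 with the smallest adjusted p was that of TRPC4, with the values given above (left over right log2 fold change -2.28 ± 0.23, edgeR adjusted p = 3e-06). It was -1.0 ± 0.21 at E6.5 (edgeR adjusted p = 0.011), a call that ended without E6.5 left 2 (0.071) or E6.5 right 1 (0.054). UTS2B had 6.33, 5.41 and 7.32 CPM in left gonads at E8, against 16.6, 13.8 and 22.4 CPM in right gonads (-1.52 ± 0.26, edgeR adjusted p = 0.00075). At E6.5 it had 17.2, 20.1 and 11.8 CPM in left gonads, against 30.9, 35.3 and 27.6 CPM in right gonads (-0.97 ± 0.25, edgeR adjusted p = 0.036), and this call ended without any 1 of the 6 libraries (0.059 to 0.14). Neither gene overlapped between sides at either stage.

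PCDH20 had 6.81, 8.43 and 6.87 CPM in left gonads at E8, against 14.2, 17.5 and 19.6 CPM in right gonads (left over right log2 fold change -1.27 ± 0.21, edgeR adjusted p = 0.00064). For TBX18, SCUBE1 and CNMD the difference was -0.99 ± 0.20, -0.98 ± 0.23 and -0.90 ± 0.17 (edgeR adjusted p = 0.0027, 0.0073 and 0.0016). For GDF7 it was -1.19 ± 0.31 (edgeR adjusted p = 0.015), for COL7A1L -0.71 ± 0.22 (0.033) and for CRISPLD2 -0.88 ± 0.29 (0.049). The GDF7 call ended without any 1 left library of E8 or without E8 right 2 (0.050 to 0.058), and that of COL7A1L without any 1 of the 6 E8 libraries (0.057 to 0.12). The CRISPLD2 call ended without any 1 of the 12 libraries except E6.5 left 1 or E8 left 3 (0.052 to 0.23). ANXA1 had 10.01, 8.18 and 13.2 CPM in left gonads at E8, against 25.9, 55.6 and 11.1 CPM in right gonads, so the sides overlapped (-1.60 ± 0.44, edgeR adjusted p = 0.020). Without E8 right 2, its highest library, the ANXA1 call ended (edgeR adjusted p = 0.20), and also without E8 left 1 (0.074) or E8 left 2 (0.081) and with a mesonephros score as covariate (0.070).

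**Figure D5:**
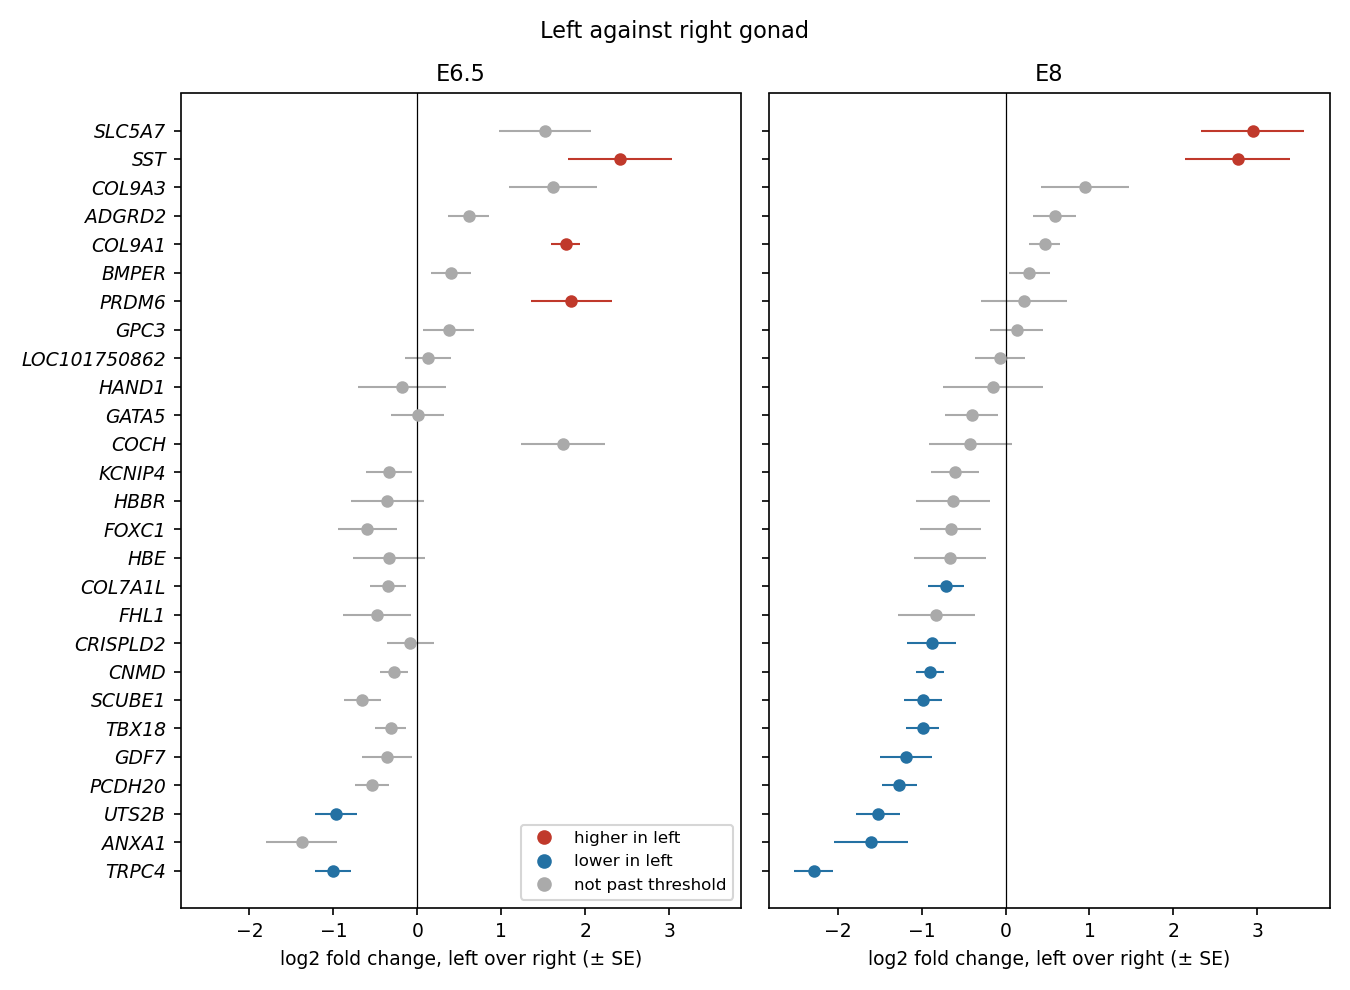
Log2 fold change of left over right gonad (± SE, edgeR, 3 libraries per group) for each of the 27 genes at E6.5 and at E8; red points were higher and blue points lower in the left gonad at an adjusted p of 0.05, and grey points did not pass. At E8, 10 genes are blue and 2 are red, and at E6.5, 2 are blue and 3 are red.

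Transcripts of neighbouring tissue also differed between the sides. A mesonephros list of 16 genes, 14 in the table, summed to 393 to 441 CPM in left gonads at E8, against 453 to 2109 CPM in right gonads, and a liver list of 14 genes to 577 to 839 CPM, against 1670 to 3878 CPM. The E8 side calls were repeated with a mesonephros score added to the model, and without the 2 libraries with high ALB. In both settings those of TRPC4, UTS2B, PCDH20, TBX18, SCUBE1, CNMD, GDF7, SST and SLC5A7 kept their direction and passed the threshold. Without the 2 libraries those of COL7A1L (edgeR adjusted p = 0.088) and CRISPLD2 (0.18) ended, and with the score that of ANXA1 ended (0.070). Only 1 of the 2 libraries is from E8. The liver list still stood at 2811 and 1670 CPM in E8 right 1 and 2. ALB itself was at 4.11 to 4.40 CPM in those 2, and the mesonephros list at 2109 and 1092 CPM. Which tissue gave the liver list transcripts there was not tested. Neither the mesonephros score nor leaving out the 2 libraries adjusted for nerve or adrenal tissue. At E8, 7 of 13 tested neural and glial genes passed the threshold with more in left gonads, and 0 with less. For a list of adrenal cortex and chromaffin cells it was 10 of 15, and 0 with less. Of all genes, 7.54% passed at E8 with more in left gonads and 6.71% with less. Whether such tissue gave the left excess of SST and SLC5A7 was not tested by either setting. The part of neighbouring tissue in the side differences was not tested.

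COL9A1 differed between the sides at E6.5, with 30.1, 29.5 and 23.9 CPM in left gonads, against 8.61, 8.68 and 6.75 CPM in right gonads (left over right log2 fold change 1.77 ± 0.17, edgeR adjusted p = 4.7e-06). At E8 it did not pass the threshold (0.46 ± 0.18, edgeR adjusted p = 0.095). The change from E6.5 to E8 was thus 1.30 ± 0.25 log2 units more negative in the left gonad than in the right, the 1 gene of the 27 for which this difference of differences passed (edgeR adjusted p = 0.039), where 0.0599% of all genes were lower and 0.0958% higher by that test. The call ended in 14 of the 19 alternative analyses, with adjusted p-values up to 0.15, among them leaving out any 1 library except E6.5 left 3 or E8 right 1 (0.052 to 0.14). At E6.5 the left level of PRDM6 was above the right one (1.84 ± 0.48, edgeR adjusted p = 0.039), a call that ended without any 1 of the 6 libraries and in 12 of the 19 alternative analyses. The difference of differences was below 0 for 24 of the 27 genes, with a median of -0.35 on the log2 scale and of -0.04 over all genes. By edgeR it passed the threshold for COL9A1 alone. For TRPC4 it was of similar size, -1.28 ± 0.31 (edgeR adjusted p = 0.12), and passed with DESeq2 (DESeq2 adjusted p = 0.014). The share of all genes below 0 was not counted, and the 27 were not tested as a set.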

How the data were processed

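Whole-number read counts per gene for 24 libraries were used as deposited. Per the submitters' processing notes, the authors used Trim Galore 0.6.7, STAR 2.7.10a and HTSeq 2.0.0 with the build GRCg6a; how strand and reads shared between genes were handled is not stated there. Groups come from the sample titles, which do not say whether left and right libraries of the same number share embryos. Deviations of same-numbered left and right libraries correlated from -0.16 to 0.53 at E6.5 and E8. With 3 libraries per group this cannot settle whether they are paired, and the main model treated them as unpaired.

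Levels are CPM on column totals. Counts were tested with edgeR 4.0.16 (R 4.3.3): filterByExpr kept 16694 genes, all 27 among them, TMM factors scaled the libraries, and 1 quasi-likelihood model with a mean per group was fitted to all 24 libraries. P-values were adjusted by the Benjamini-Hochberg method across the 16694 genes, and 0.05 was the threshold. The contrasts were E8 over E6.5 per gonad, left over right at E6.5 and E8, and the difference of those differences.

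Of 28 genes that met the rule, 1 is not reported here. The 27 genes and the 18 gene lists were chosen with earlier results of these data known. Named were HAND1, the 15 genes with the highest E5 level, the 8 largest passing changes each way per contrast, members on a list and genes at the threshold; the rest were named after their values were seen. The other settings tried were RLE size factors, DESeq2 1.42.0, no low-count filter, the compared libraries alone, a mesonephros covariate, a replicate block and leaving out libraries. Sequences were not used here. The limit given for a count of 0 covers counting error only; SD and SE include the scatter between libraries.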

Additional observations from a re-analysis of the deposited data

Results flagged for a closer look

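COL9A1, a type IX collagen chain, changed between E6.5 and E8 by unequal amounts in the 2 gonads. The change was more negative in the left gonad, with a difference of differences of -1.30 on the log2 scale (edgeR adjusted p = 0.039), tested as an interaction term over 16694 genes. The call ended in 14 of the 19 alternative analyses, among them the replicate block (0.069) and only the compared libraries (0.13). A formal outlier test needs at least 4 libraries per group and was not run.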

How the results depend on the processing

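Over 19 alternative analyses of 135 gene tests, the result kept its side of the threshold 2399 times, lost it 122 times, gained it 44 times and never changed direction after a call. Calls that held in every alternative numbered 12 of 19 for E8 over E6.5 in the left gonad, 9 of 14 in the right, 1 of 5 for left over right at E6.5 (COL9A1) and 8 of 12 at E8. Leaving out 1 library gave 13 to 20 genes lower at E8 in the left gonad and 10 to 16 in the right, 0 to 3 lower and 1 to 4 higher in the left at E6.5, 6 to 10 lower and 2 higher at E8, and 0 to 1 for the difference of differences. Without E8 right 3, COCH fell in the left gonad (edgeR adjusted p = 0.038), and without E8 right 2, ANXA1 fell in the right (0.0054).

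Replicate number was also used as a block, although it is not known whether the numbers pair the libraries. With it, 21 genes fell in the left gonad and 17 in the right. At E6.5, 4 were lower in the left, against 2 without the block, and 0 passed the difference of differences. That count of 1 was also 0 with no low-count filter, with only the compared libraries and without the 2 libraries with high ALB. It was 2 with DESeq2, COL9A1 and TRPC4. For left over right at E6.5, the count of 3 higher was 1 with the mesonephros covariate and with only the compared libraries. It was also 1 without the 2 libraries with high ALB. The count of 2 lower was 0 with only the compared libraries. The causes were not tested.

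A fold of 4 in place of 8 gave 92 genes and a fold of 16 gave 3. Leaving out 1 library of E5 or E9.5 gave 24 to 29. The genes that left the set in at least 1 of these settings were GDF7, TRPC4, FOXC1, PRDM6, COCH, SST, CNMD and FHL1. With TMM-scaled CPM 26 genes met the rule, without GDF7. Counted at a 4-fold loss, the 27 genes passed at E6.5, E8 and E9.5 as 8, 19 and 0 in the left gonad and 14, 11 and 2 in the right. Promoter motif counts were not run, since sequences were not used here. Low counts limit HAND1, PRDM6 and FHL1 at E8 and E9.5, where a difference may not be detectable. The E8 side calls of SST and SLC5A7 also rest on small counts in right gonads, 25, 6 and 26 for SST and 24, 9 and 24 for SLC5A7. LOC101750862 had 17 to 29 counts in the E8 libraries.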
